A study of Mus musculus with 24 samples.

Results

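Ribosomal protein (RP) genes of the cytosolic ribosome were followed in Ly6C hi and Ly6C low monocytes sorted from mouse spleens. The set was all measured genes whose symbol begins with Rpl or Rps and a number, without the S6 kinase genes and without pseudogenes named as such, and 22 of the 23930 rows of the expression table are described. No expression value was used to choose them. Of the 22 genes, 13 encode core proteins of the cytosolic ribosome, 7 are paralogs of such genes, and 2 carry the name without encoding a ribosomal protein (Rpl7l1, a factor of large subunit assembly, and Rps19bp1, a regulator of the deacetylase SIRT1 that binds Rps19). Most genes of the mouse ribosome are not among these rows and were not analysed here.

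RNA was sequenced in 24 libraries, 4 for each of 6 groups. The groups were CD11b+ cells high or low for Ly6C, sorted without Ly6G+, Siglec F+, and NK1.1+ cells, and the mice were WT, lacked Slc29a3 (Slc29a3-/-), or lacked both Slc29a3 and Tlr7 (Slc29a3-/- Tlr7-/-). Fcgr4 was a further gate: the labels give the Ly6C low cells as Fcgr4+, and by the methods of the study the Ly6C hi cells were Fcgr4 low. Slc29a3 encodes the lysosomal nucleoside transporter, and Tlr7 encodes an endosomal receptor of single-stranded RNA and nucleosides. The comparisons ask what changes with the loss of Slc29a3 and which of these changes are absent when Tlr7 is lost as well. The mutations are germline lesions made by CRISPR/Cas9 in C57BL/6 mice, so they act in every cell of the animal, and the labels give neither the age of the mice nor whether each library came from a separate mouse. P-values therefore measure the spread between libraries, which may be in part technical.

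A ribosome is built from a small subunit, which reads the mRNA, and a large subunit, which joins the amino acids. Cells make the RPs in step, because free RPs are degraded and an imbalance can activate p53. Many RP mRNAs begin with a C and a run of pyrimidines, the 5′ terminal oligopyrimidine (TOP) tract, through which mTORC1 and LARP1 set their translation. Monocytes mature from Ly6C hi to Ly6C low cells, and cells that divide are known for high expression of RP genes.

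TOP tracts were looked for at the annotated 5′ ends of the genes, because this start is the best known shared feature of RP mRNAs and the selection of genes did not use it. A start was counted when an annotated protein-coding transcript (GENCODE vM21, build mm10) began with C followed by 4 or more pyrimidines (C or T). Such a start was found for 7 of the 13 core RP genes (53.8%), and for 963 of 18370 measured genes with a protein-coding transcript (5.24%). The first 24 bases of 5 of them, the genes with the results below, are shown 5′ to 3′ with the pyrimidine run in capitals.
Rps3 (Rps3-202, chr7:99483628-99483651, minus strand): CCTTTCCTTTCagcggcgcgcggc
Rps9 (Rps9-202, chr7:3704038-3704061, plus strand): CTCTTTgtctcgggcctgagttcg
Rps21 (Rps21-201, chr2:180257377-180257400, plus strand): CCCTCCTgcccaatagtgctgcgg
Rpl4 (Rpl4-201, chr9:64173375-64173398, plus strand): CTTTTCCTgtgggagcagccgggt
Rpl32 (Rpl32-201, chr6:115808724-115808747, minus strand): CTTCCTTCTTCCTCggcgctgcct
The run was between 6 and 14 bases long in these and 2 further genes, Rpl30 and Rps2. Annotated starts can lie away from the start used in monocytes, so a gene without the run at its annotated start may still make a TOP mRNA.

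Levels were RPM, the reads of 1 amplicon per gene scaled to 1000000 reads of the library, and a value can be compared between libraries but not between genes. The depth was inferred at 12311037 to 14572266 reads per library, so that 3 reads, taken as the floor, equalled 0.206 to 0.244 RPM. Of the 22 genes, 15 had at least 1 RPM in all 24 libraries, among them 5 core genes of the small subunit (Rps3, Rps9, Rps14, Rps15, and Rps21) and 5 of the large subunit (Rpl4, Rpl8, Rpl30, Rpl32, and Rpl41). The 15 also hold the paralogs Rpl36al and Rps27l, the pseudogene Rps4l, and Rpl7l1 and Rps19bp1, which encode no RP. For short, all genes of the set are called RP genes in the counts, shares, and medians below. The remaining 7 were under 1 RPM in at least 1 library. They included the core genes Rpl22, Rps2, and Rps4x, whose amplicons did not exceed 1.35 RPM in any library. Ribosomes need Rps2 and Rps4x, whereas Rpl22 can be replaced by its paralog Rpl22l1. Values this low were not read as the level of the 3 genes. The other 4 were Rpl10l and Rpl39l, paralogs known from male germ cells, the pseudogene Rpl32l, and Rpl3l. Reads of processed pseudogenes, which the RP genes have in large number, may be counted with those of the genes.

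The sorted populations matched their names: the summed level of 3 Ly6C hi monocyte genes was 2226 to 6261 RPM in the Ly6C hi libraries and 13.6 to 267 RPM in the Ly6C low libraries. The amplicons of both targeted genes were still read in the mutants, as small lesions allow. Slc29a3 ranged from 127 to 173 RPM in Ly6C hi Slc29a3-/- libraries and from 163 to 225 RPM in Ly6C hi WT libraries, and Tlr7 from 259 to 345 RPM in the Ly6C hi libraries without functional Tlr7. The genotypes thus rest on the labels. Several libraries stood apart. In WT replicate 4 of both subsets, which carries a barcode far from those of WT replicates 1 to 3, 5.32% (Ly6C hi) and 7.92% (Ly6C low) of genes lay over 2-fold from the median of the other 3 replicates. In the Slc29a3-/- Tlr7-/- group, Ly6C hi replicate 2 (8.40% of genes) and Ly6C low replicates 3 and 4 (4.76% and 19.0%) had low values of Rps9 and Rpl4. Ly6C low replicates 1 and 2 of that group, seen against the same medians, lay at 7.14% and 6.54%. Results that rest on WT replicate 4, or on the 3 Slc29a3-/- Tlr7-/- libraries with low Rps9 and Rpl4 (the uneven libraries), are given with and without them.

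In Ly6C hi monocytes, 3 of 17 tested RP genes (Rps14, Rps15, and Rpl4) were lower in Slc29a3-/- libraries than in WT, beside 17.8% of all genes, and 2 (Rps14 and Rps21) were lower than in Slc29a3-/- Tlr7-/- libraries, beside 10.3% of all genes. Both shares were near those of all genes. The summed level of the 5 small subunit genes was 8211, 8213, 8059, and 6353 RPM in WT, 5645, 5408, 5043, and 5239 RPM in Slc29a3-/-, and 6855, 6620.2, 7739, and 6379 RPM in Slc29a3-/- Tlr7-/- libraries. No Slc29a3-/- library reached the lowest library of either other group. For WT replicate 4 this rests on Rps9, at 2396 RPM there and 1018 to 1729 RPM in Slc29a3-/-. In the other small subunit genes of the sum, that library lay within or below the Slc29a3-/- range. The 5 large subunit genes summed to 4002, 3772, 4169, and 3440 RPM in WT, 3513, 3323, 3555, and 2849 RPM in Slc29a3-/-, and 3627, 4268, 4681, and 4131 RPM in Slc29a3-/- Tlr7-/- libraries. Here Slc29a3-/- overlapped WT, while all 4 values lay below those of Slc29a3-/- Tlr7-/-. Fewer RP-rich cells in a sample and less RP mRNA per cell cannot be told apart in such bulk values.

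**Figure D1:**
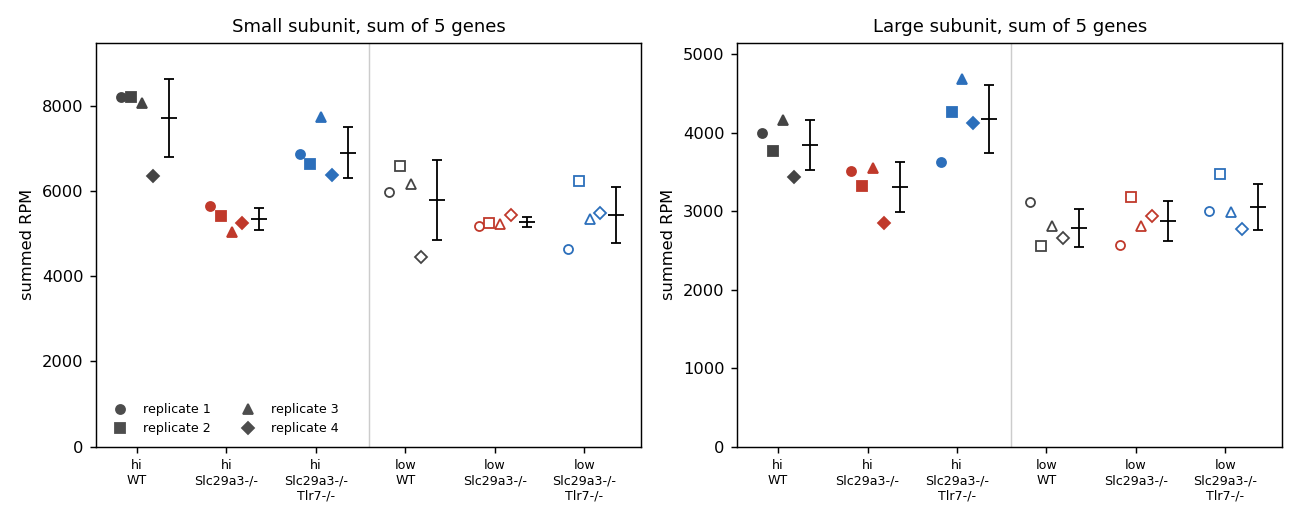
Summed RPM of the 5 core small subunit genes (left) and the 5 core large subunit genes (right) in each of 24 libraries; filled symbols are Ly6C hi and open symbols Ly6C low libraries, and bars give the mean and SD of 4. The Ly6C hi Slc29a3-/- libraries lie between 5043 and 5645 RPM for the small subunit, below all other Ly6C hi libraries and in the range of the Ly6C low libraries. Among the 5 small subunit genes, Ly6C hi WT replicate 4 exceeds the Slc29a3-/- range in Rps9 only.

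Rps14, a protein of the small subunit platform, read 794, 840.2, 791, and 654 RPM in Ly6C hi WT, 571, 690.3, 502, and 519.9 RPM in Slc29a3-/-, and 779.9, 1039.9, 829.8, and 763 RPM in Slc29a3-/- Tlr7-/- libraries. WT replicate 4 lay within the range of Slc29a3-/-, whereas the Slc29a3-/- Tlr7-/- libraries were all higher. Rps14 fell against both, with log2 fold changes of -0.44 ± 0.14 (SE; limma, adjusted P = 0.036) and -0.58 ± 0.14 (limma, adjusted P = 0.012). The call held in 11 of 25 alternative settings against WT and in 22 of 24 against Slc29a3-/- Tlr7-/-.

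Rps15, which lies in the head of the small subunit, read 2689, 2519, 2691, and 1395 RPM in Ly6C hi WT and 1398, 1476, 1531, and 1425 RPM in Slc29a3-/- libraries. The difference from WT (log2 fold change -0.62 ± 0.20, limma, adjusted P = 0.03) was thus carried by WT replicates 1 to 3, and WT replicate 4 lay below all Slc29a3-/- libraries. Without WT replicate 4 the log2 fold change was -0.85 (limma, adjusted P = 0.00089). With it as the sole control, assumed to vary like the other groups, the log2 fold change was 0.06 (limma, adjusted P = 0.93). In Slc29a3-/- Tlr7-/- libraries Rps15 read 1674, 2309, 1928, and 1635 RPM, all above Slc29a3-/-, but the difference missed the adjusted threshold (-0.36 ± 0.20, limma, adjusted P = 0.22).

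Rps21, a small protein of the small subunit, read 492, 577, 506, and 275 RPM in Ly6C hi Slc29a3-/- and 616, 769, 765, and 619 RPM in Slc29a3-/- Tlr7-/- libraries. The groups did not overlap, and Rps21 fell by 0.63 ± 0.20 on the log2 scale (limma, adjusted P = 0.041). In WT it read 629, 646, 707, and 494 RPM, and the difference of Slc29a3-/- from WT, -0.46 ± 0.20, did not pass (limma, adjusted P = 0.10). Without Ly6C hi Slc29a3-/- Tlr7-/- replicate 2, the uneven library of this subset, Rps21 missed the threshold (-0.57, limma, adjusted P = 0.078). Rps14 passed there (-0.48, limma, adjusted P = 0.027). With any 1 of the 12 Ly6C hi libraries left out, Rps14 passed against Slc29a3-/- Tlr7-/- in 12 of 12 fits and Rps21 in 3 of 12.

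Rps3, which forms part of the mRNA entry channel, lay lower in Slc29a3-/- without passing in either comparison. It read 2027, 1915, 1801, and 1414 RPM in Ly6C hi WT, 1473, 1416, 1485, and 1291 RPM in Slc29a3-/-, and 1745, 1832, 1661, and 1735 RPM in Slc29a3-/- Tlr7-/- libraries. WT replicate 4 lay within the range of Slc29a3-/-, and the Slc29a3-/- Tlr7-/- libraries were all higher. The differences were -0.33 ± 0.14 from WT and -0.30 ± 0.14 from Slc29a3-/- Tlr7-/- (limma, adjusted P = 0.087 and 0.13).

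**Figure D2:**
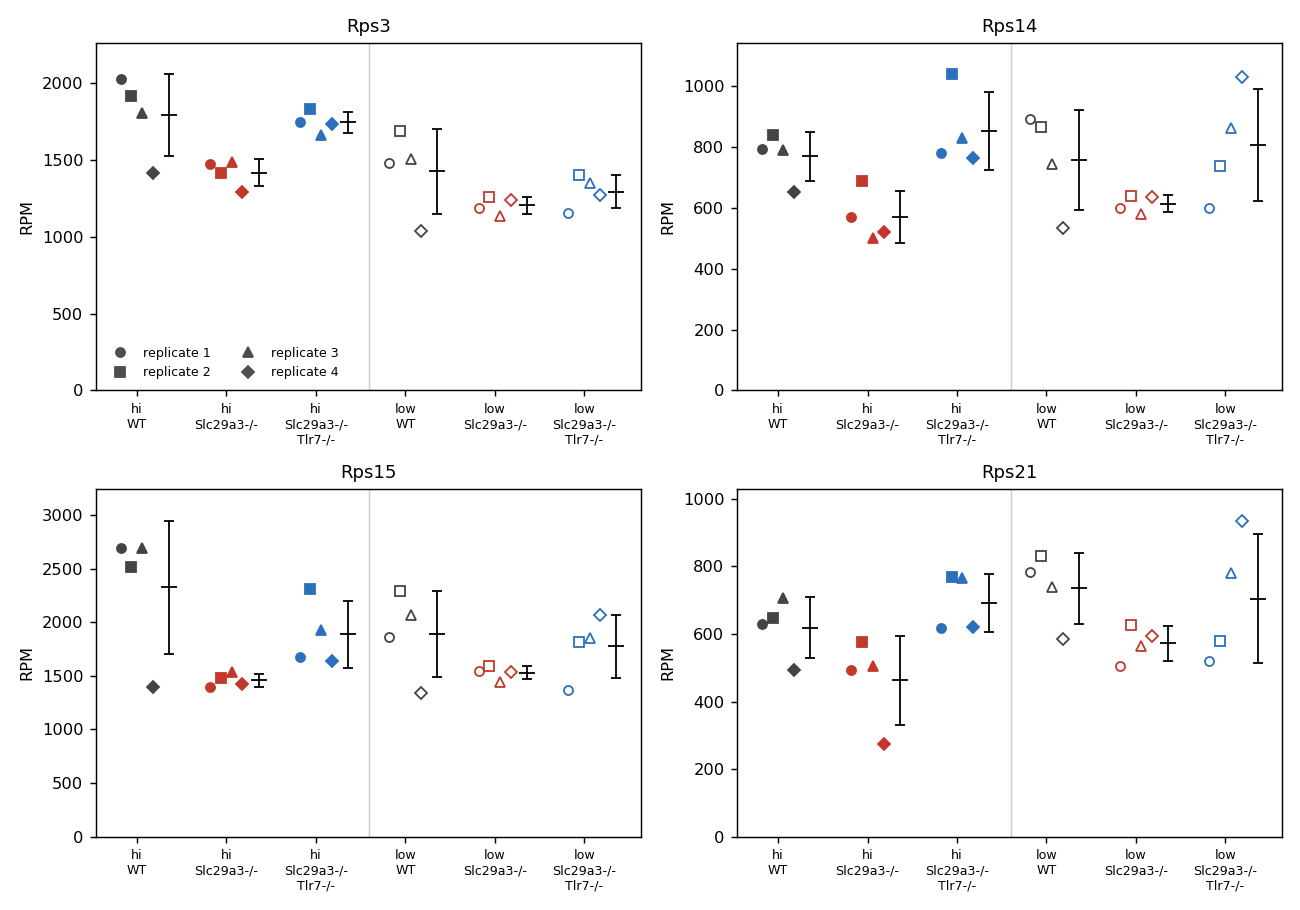
RPM of Rps3, Rps14, Rps15, and Rps21 in each library, with the mean and SD of 4 libraries per group; filled symbols are Ly6C hi and open symbols Ly6C low. For Rps3 and Rps21 the Ly6C hi Slc29a3-/- libraries (1291 to 1485 and 275 to 577 RPM) lie below all Ly6C hi Slc29a3-/- Tlr7-/- libraries, and for Rps15 WT replicate 4 (1395 RPM) lies apart from the other Ly6C hi WT libraries.

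Among large subunit genes, only Rpl4, which lines the tunnel for the growing chain, passed against WT. It read 2048, 1971, 2154, and 1594 RPM in Ly6C hi WT and 1519.6, 1215, 1379, and 1334 RPM in Slc29a3-/- libraries, without overlap (log2 fold change -0.51 ± 0.17, limma, adjusted P = 0.039). Against Slc29a3-/- Tlr7-/- its difference was -0.18 ± 0.17 (limma, adjusted P = 0.48). Rpl8, next to the peptidyl transferase center, differed by -0.15 ± 0.15 from WT and Rpl30 by -0.07 ± 0.21 (limma, adjusted P = 0.47 and 0.83). Rpl32 took the opposite sign, reading 759.5, 680.0, 784, and 841 RPM in WT against 914, 934, 1051, and 738 RPM in Slc29a3-/- libraries, a difference of 0.24 ± 0.18 that did not pass (limma, adjusted P = 0.35).

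Across the genes tested in Ly6C hi monocytes, 3 of 17 RP genes (17.6%) were lower in Slc29a3-/- than in WT and 0 were higher at an adjusted P under 0.05 (limma). Of all 10561 genes tested, 17.8% were lower and 10.2% higher, so the share of lower RP genes was near that of all genes. At an unadjusted P under 0.05, 6 RP genes were lower and 0 higher. The share of all genes at an unadjusted P alone was not counted, here or below. Such counts are therefore not read as a result about RP genes. The median log2 fold change of the 15 RP genes measured in all libraries was -0.23, beside -0.14 for all genes tested, and 4 of the 15 were positive. The positive ones were the core gene Rpl32, the paralog Rps27l, and Rpl7l1 and Rps19bp1, which encode no RP. Against Slc29a3-/- Tlr7-/-, 2 of 17 (11.8%) were lower, Rps14 and Rps21, beside 10.3% of all genes, and 0 were higher, beside 10%. At an unadjusted P under 0.05, 4 were lower and 0 higher, again with no share of all genes counted. The median of the 15 was -0.18, beside -0.12 for all genes, and 2 of the 15 were positive (Rpl41 and Rpl7l1). Both comparisons share the Slc29a3-/- libraries. By fold change over 1.5 with an unadjusted P under 0.05, the threshold in the methods of the study, 1 RP gene was lower in each comparison, Rps15 against WT (17.3% of all genes) and Rps21 against Slc29a3-/- Tlr7-/- (11.9%). Groups did not overlap for 3 RP genes that were lower than in WT (Rpl4, Rpl41, and Rps9, beside 21.8% of all genes), and for 5 that were lower than in Slc29a3-/- Tlr7-/- (Rpl3l, Rps3, Rps14, Rps15, and Rps21, beside 11.5%). Of these, Rpl3l passed the filter on low values mainly through the Slc29a3-/- Tlr7-/- libraries, so its difference is not read as a result.

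RPM values are shares of a library, and the libraries differed in what filled them. A list of 13 neutrophil genes summed to 76881 to 142073 RPM in the 4 Ly6C hi Slc29a3-/- libraries. It summed to 25058 to 34248 RPM in WT and 13735 to 40920 RPM in Slc29a3-/- Tlr7-/- libraries. By gene, 8 of the 13 were higher and 2 lower in Slc29a3-/- than in WT (limma, adjusted P under 0.05). The shares of all genes were 10.2% and 17.8%. Ly6G+ cells were left out by the sort, and S100a8 and S100a9 of the list are also expressed by Ly6C hi monocytes. A list of 8 granulocyte-monocyte progenitor genes was at 818 to 2732, 426 to 467, and 377 to 897 RPM in the same order. The 11 proliferation genes were at 1469 to 2532, 547 to 884, and 455 to 738 RPM. Of the 8 progenitor genes, 4 were higher and 1 lower in Slc29a3-/- than in WT (limma, adjusted P under 0.05). Of the 11 proliferation genes, 11 were higher. T cell genes (7 measured) moved the other way, with 12.1 to 23.2 RPM in Slc29a3-/-, 64.0 to 266 RPM in WT, and 22.4 to 125 RPM in Slc29a3-/- Tlr7-/- libraries. In the same order, 5 NK cell genes summed to 19.4 to 36.6, 102 to 425, and 7.80 to 611 RPM. The sums of 5 plasmacytoid dendritic cell genes were 92.9 to 171, 218 to 328, and 231 to 314 RPM. Those of 6 conventional dendritic cell genes were 145 to 297, 256 to 362, and 433 to 655 RPM. Sums can hide genes that moved the other way. In Slc29a3-/- Tlr7-/- against WT, 1 of the 6 conventional dendritic cell genes had a positive log2 fold change (median -0.31). In Slc29a3-/- against WT, 5 of the 6 were lower (limma, adjusted P under 0.05; median -1.62), beside 17.8% of all genes. The plasmacytoid dendritic cell genes had medians of -0.80 and -1.94 in the same comparisons, in that order. None of the genes of these lists was at 0 in all 4 libraries of a Ly6C hi group. When the reads of the 13 neutrophil genes were left out of the library total, 0 RP genes passed against WT (median -0.13), while Rps14 (-0.47, limma, adjusted P = 0.029) still passed against Slc29a3-/- Tlr7-/-. With TMM scaling, which shifted the median of all genes from -0.14 to 0.02 against WT, 0 RP genes passed in either comparison, and Rps14 differed from Slc29a3-/- Tlr7-/- by -0.42 (limma, adjusted P = 0.06). With WT replicate 4 as the sole control, 0 RP genes passed against WT and the median of the 15 was -0.15. Leaving out WT replicate 1, 2, or 3, or Slc29a3-/- replicate 3, also left 0 RP genes past the threshold against WT, and leaving out Slc29a3-/- replicate 1, 2, or 4 left 1. Without WT replicate 4, 4 RP genes passed against WT and 3 against Slc29a3-/- Tlr7-/-. Shares of all genes are not given for these settings, so the changes in count are not read as particular to RP genes. The part of these other cells in the difference of the RP genes was not tested.

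**Figure D3:**
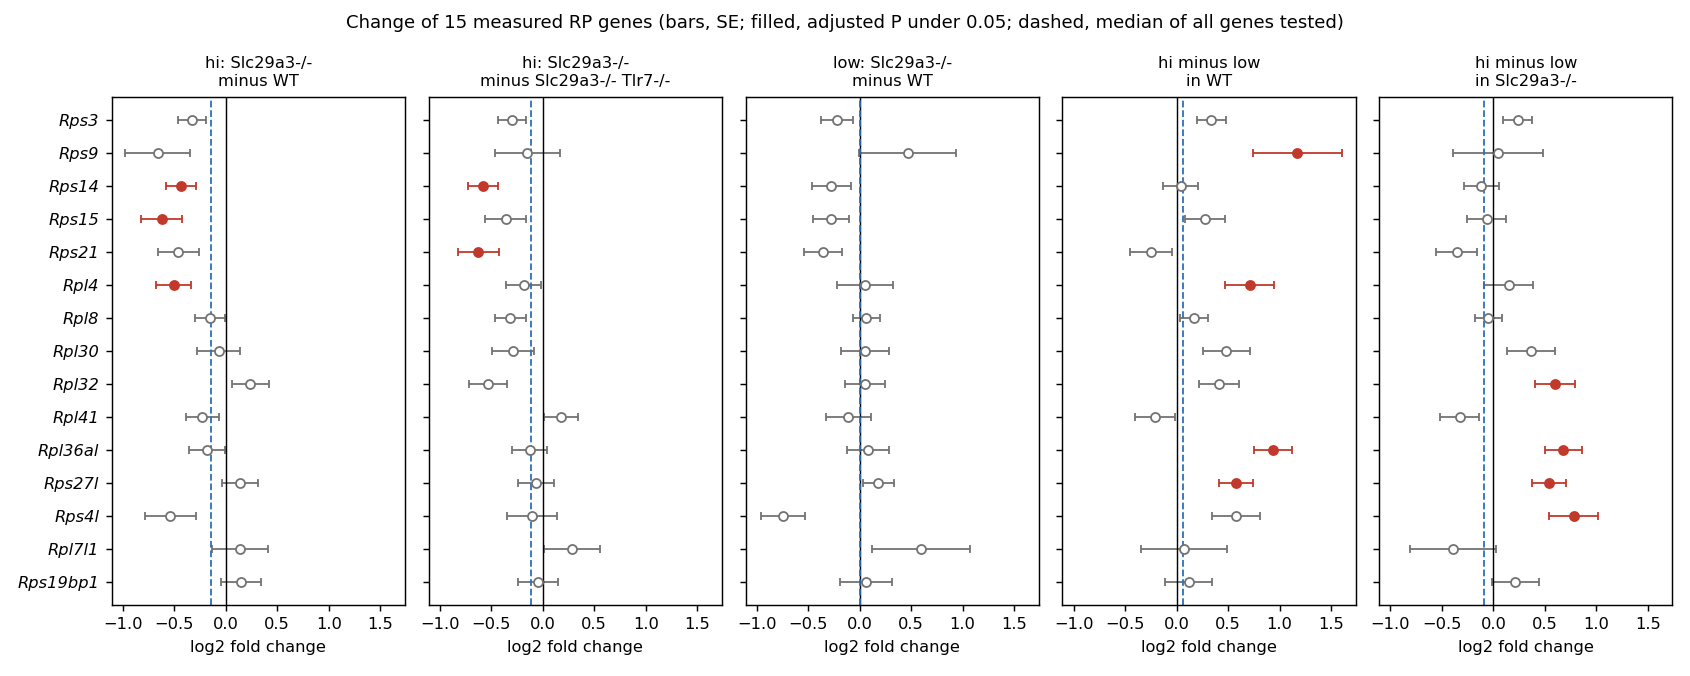
Log2 fold change (points, with SE bars) of the 15 RP genes measured in every library, in 3 genotype comparisons and 2 subset comparisons; filled points have an adjusted P under 0.05 and the dashed line is the median of all genes tested. Filled points lie to the left of 0 in both Ly6C hi comparisons of Slc29a3-/-, none is filled in Ly6C low cells, and in the subset comparison of WT 4 are filled on the right.

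Where Tlr7 was lost in addition to Slc29a3, no RP gene passed against WT in Ly6C hi monocytes. In Slc29a3-/- Tlr7-/- against WT, 0 of 17 RP genes were called higher and 0 lower by adjusted P (limma), beside 0.312% and 1.15% of all genes, and the median of the 15 was -0.03, beside -0.06. At an unadjusted P under 0.05, 1 was higher and 1 lower, with no share of all genes counted. By the fold threshold, 1 RP gene was higher (3.12% of all genes). It was Rpl32, which read 901, 1777, 1389.6, and 1308 RPM in Slc29a3-/- Tlr7-/- libraries, all above the highest WT library, at a log2 fold change of 0.77 ± 0.18 just short of the adjusted threshold (limma, adjusted P = 0.051). Without Ly6C hi Slc29a3-/- Tlr7-/- replicate 2, the uneven library of this subset, the Rpl32 difference was 0.62 (limma, adjusted P = 0.11). Without WT replicate 4 it was 0.82 (limma, adjusted P = 0.019).

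In Ly6C low monocytes, no RP gene passed between the genotypes. The summed level of the small subunit genes was 4450 to 6581 RPM in WT, 5167 to 5441 RPM in Slc29a3-/-, and 4639 to 6243 RPM in Slc29a3-/- Tlr7-/- libraries, so that all 3 groups overlapped. At an adjusted P under 0.05 (limma), 0 of 16 RP genes were higher or lower in Slc29a3-/- than in WT (2.02% and 2.63% of all 10317 genes tested), 0 of 16 differed between Slc29a3-/- and Slc29a3-/- Tlr7-/- (1.22% higher and 0.708% lower of all genes), and 0 of 16 differed between Slc29a3-/- Tlr7-/- and WT (2.50% higher and 6.37% lower). The medians of the 15 RP genes in the 3 comparisons were 0.05, -0.10, and -0.09. At an unadjusted P under 0.05 the counts in the same order were 0 higher and 1 lower, 3 higher and 2 lower, and 1 higher and 1 lower. These counts too have no share of all genes beside them and are not read as a result. Without Ly6C low WT replicate 4, 1 RP gene passed in each comparison with WT. In Slc29a3-/- Tlr7-/- against WT, 2 passed without Slc29a3-/- Tlr7-/- replicate 1 and 1 without its replicate 2. No share of all genes is given for these fits, so their counts are not read as particular to RP genes.

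The difference of the Slc29a3-/- effect between the subsets was tested in the fit of all 24 libraries as an interaction term. For this term 0 of 17 RP genes passed in the higher and 0 in the lower direction (limma), beside 4.13% and 4.72% of all genes, and 0 had an unadjusted P under 0.05. Thus a difference of the genotype effect between the subsets was not shown for these genes. The lowest value was that of Rps9, at -1.13 ± 0.62 (limma, adjusted P = 0.29). Transcripts under 1000 bases, which include most RP mRNAs, stood higher against those over 4000 bases by 0.11 to 0.15 on the log2 scale in Ly6C low WT replicates 1 to 3, and by -0.09 to 0.02 in the other Ly6C low libraries, and the part of this in the low genotype comparisons was not tested.

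By the fold threshold, 1 RP gene was lower in Ly6C low Slc29a3-/- than in WT (7.05% of all genes). This was Rps4l, annotated as a transcribed processed pseudogene of Rps4x. It read 7.87, 13.1, 10.3, and 14.5 RPM against 22.2, 14.96, 19.9, and 21.3 RPM in WT, without overlap (log2 fold change -0.74 ± 0.22, limma, adjusted P = 0.067). Without the uneven Ly6C low libraries the adjusted P was 0.033 (limma). Those libraries belong to neither group compared, so the fold change rests on the same libraries. Only the estimate of spread and the adjustment over all genes could change. Rpl41, the smallest RP, which bridges the subunits, was the 1 gene lower in Slc29a3-/- Tlr7-/- than in WT by fold (14.6% of all genes). It read 44.9, 47.6, 31.7, and 22.6 RPM against 60.1, 71.2, 61.3, and 46.6 RPM in WT, with an overlap of 1 library (-0.73 ± 0.22, limma, adjusted P = 0.0501, and 0.02 without Ly6C low WT replicate 4). Rps4l was also lower in Slc29a3-/- than in Slc29a3-/- Tlr7-/- (2.92% of all genes), and Rps9, Rpl41, and Rpl7l1 were higher (10.8% of all genes). Without the uneven Ly6C low libraries, 0 RP genes apart from Rps9 and Rpl4 passed the fold threshold in that comparison. The same held for Slc29a3-/- Tlr7-/- against WT. Rps9 and Rpl4 are left out of this count because the libraries were chosen by their values. Rpl41 and Rpl7l1 were also lowest in these libraries, and fewer Ly6C low Slc29a3-/- Tlr7-/- libraries remained. The count therefore cannot tell whether the differences rest on these libraries alone.

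Rps9, at the mRNA entry of the small subunit, varied widely among the Slc29a3-/- Tlr7-/- libraries. It read 2039.7, 670.5, 2555, and 1627 RPM in the 4 Ly6C hi Slc29a3-/- Tlr7-/- libraries and 1002, 1709, 487, and 179 RPM in the Ly6C low libraries of that genotype. In WT it lay between 2069 and 2396 RPM in Ly6C hi and between 912 and 1100.4 RPM in Ly6C low libraries. The 3 uneven libraries, Ly6C hi replicate 2 and Ly6C low replicates 3 and 4, were chosen after their Rps9 and Rpl4 values (1139, 881, and 493 RPM for Rpl4) had been seen, so that no test of these 2 genes without them is given. They were the lowest of their genotype and subset for Rpl41 (29.3, 31.7, and 22.6 RPM) and Rpl7l1 (51.3, 52.1, and 18.2 RPM).

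The same 3 libraries were high for other RP genes. Rpl32 read 1777, 922, and 1194 RPM there and Rps21 769, 781, and 936 RPM. Each of these was the highest or next highest value of its group. The share of Rps9 in the summed core genes was 6.16%, 5.85%, and 2.17% in these libraries and 9.98% to 24.5% in the other 21, whereas the share of Rpl32 was 16.3%, 11.1%, and 14.5%, beside 5.66% to 12.4%. The sum over all RP genes was not low (11309, 8619, and 8525 RPM). What unites the genes on each side was not tested.

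**Figure D4:**
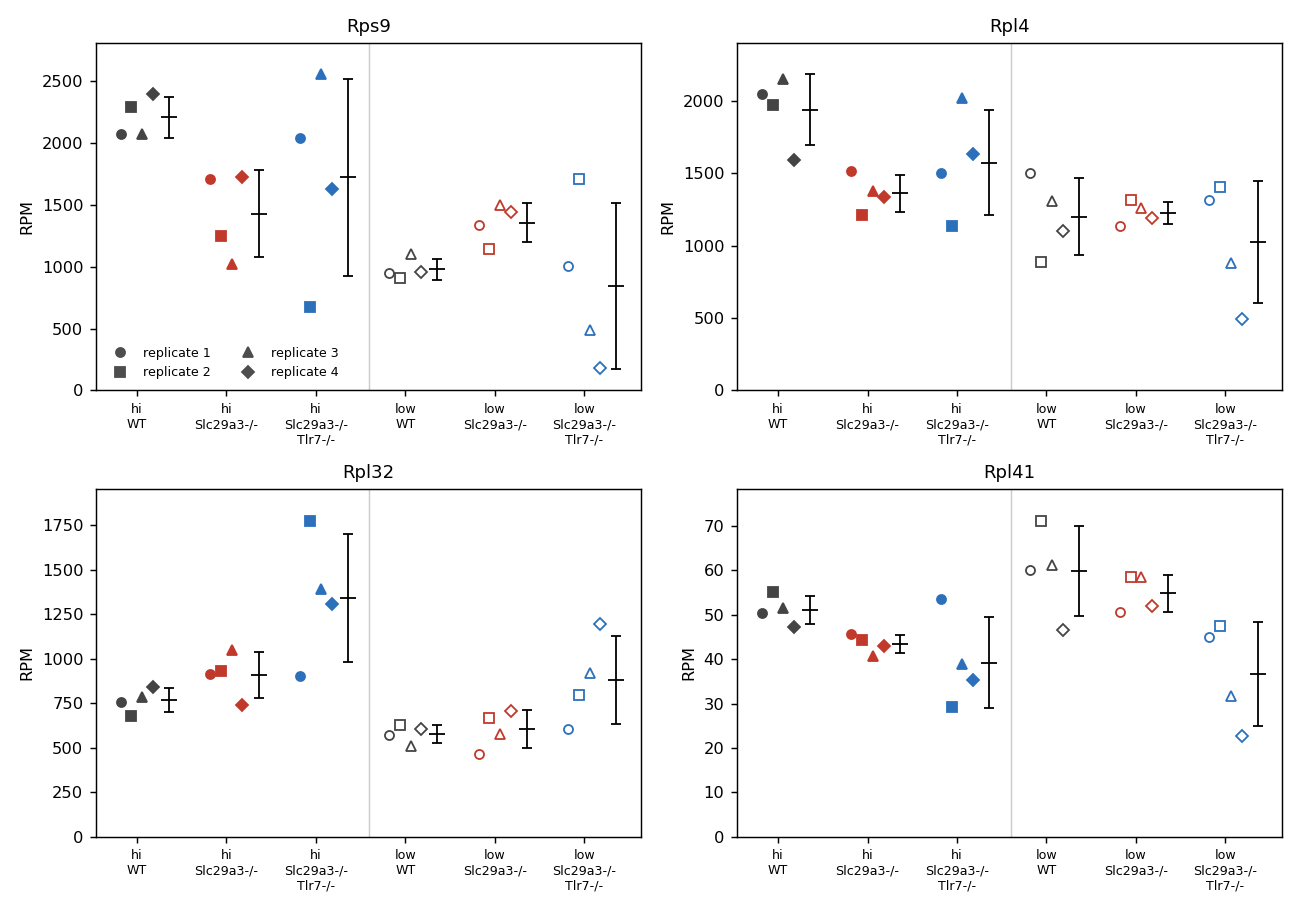
RPM of Rps9, Rpl4, Rpl32, and Rpl41 in each library, with the mean and SD of 4 libraries per group; filled symbols are Ly6C hi and open symbols Ly6C low. In Ly6C hi replicate 2 (square) and Ly6C low replicates 3 and 4 (triangle and diamond) of Slc29a3-/- Tlr7-/-, Rps9, Rpl4, and Rpl41 are the lowest of their group while Rpl32 is the highest or next highest.

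Between the subsets, a few RP genes were higher in Ly6C hi than in Ly6C low cells in each genotype. In WT, 4 of 17 RP genes were higher (23.5%) and 1 lower (5.88%) in Ly6C hi cells, beside 19.1% and 10.5% of all 11042 genes tested (limma). The median log2 difference of the 15 RP genes was 0.34, beside 0.07 for all genes, and 13 of the 15 were positive. In Slc29a3-/- Tlr7-/-, 6 were higher (35.3%) and 1 lower (5.88%), beside 21.4% and 11.8% of all genes, with a median of 0.32, beside 0.12. The 6 include Rpl4 and Rps9, which were low in the uneven libraries of that genotype. In Slc29a3-/-, 4 were higher (23.5%) and 1 lower (5.88%), beside 19.1% and 22.1%, and the median was 0.15, beside -0.10. The 1 lower gene was Rpl3l in each genotype, which passed the filter on low values mainly through its Ly6C low libraries and is not read as a result. Leaving out Ly6C hi WT replicate 1, 2, or 3 left 3 calls in WT. Leaving out WT replicate 4 gave 7 (Ly6C hi) and 4 (Ly6C low) there. Leaving out Ly6C low Slc29a3-/- replicate 1 left 3 in Slc29a3-/-. Shares of all genes are not given for these fits either. Lists of other cells also differed between the subsets of WT. Proliferation genes were at 547 to 884 RPM in Ly6C hi and 97.8 to 164 RPM in Ly6C low libraries, and neutrophil genes at 25058 to 34248 and 251 to 2607 RPM. T cell genes were at 64.0 to 266 and 31.05 to 92.9 RPM, NK cell genes at 102 to 425 and 22.2 to 101 RPM, and plasmacytoid dendritic cell genes at 218 to 328 and 98.1 to 122 RPM. The part of these cells in the RP genes was not tested. For the summed small subunit genes, the Ly6C hi libraries of Slc29a3-/- (5043 to 5645 RPM) overlapped their Ly6C low libraries (5167 to 5441 RPM). In WT the groups (6353 to 8213 and 4450 to 6581 RPM) overlapped only through Ly6C hi replicate 4, and in Slc29a3-/- Tlr7-/- (6379 to 7739 and 4639 to 6243 RPM) they did not.

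The paralogs Rpl36al and Rps27l were higher in Ly6C hi cells in all 3 genotypes. Rpl36al, a paralog of the large subunit gene Rpl36a, read 28.0, 25.5, 28.6, and 26.4 RPM in Ly6C hi WT and 12.1, 11.7, 14.7, and 16.8 RPM in Ly6C low WT libraries. Over all genotypes it was at 20.2 to 35.9 RPM in the 12 Ly6C hi and 9.05 to 16.8 RPM in the 12 Ly6C low libraries, with no overlap. The log2 difference was 0.94 ± 0.18 in WT, 0.68 ± 0.18 in Slc29a3-/-, and 1.02 ± 0.18 in Slc29a3-/- Tlr7-/- (limma, adjusted P = 0.00029, 0.0042, and 0.00011).

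Rps27l, a paralog of Rps27 known as a p53 target, read 211, 144, 184, and 234 RPM in Ly6C hi WT and 138, 111, 127, and 133 RPM in Ly6C low WT libraries. In Slc29a3-/- it was at 172 to 244 against 134 to 154 RPM, and in Slc29a3-/- Tlr7-/- at 184 to 277 against 116 to 176 RPM, each without overlap. The log2 differences were 0.58, 0.54, and 0.56, each ± 0.16 (limma, adjusted P = 0.0088, 0.011, and 0.01). Of 9 other p53 targets tested, 1 was higher and 2 were lower in Ly6C hi WT cells (19.1% and 10.5% of all genes; median -0.24), and the leading genes Ccng1 and Cdkn1a differed by -0.20 and -0.38 (limma, adjusted P = 0.41 and 0.48).

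Rpl3l, which replaces Rpl3 in heart and skeletal muscle, lay lower in Ly6C hi cells. It read 0.971, 0.278, 0.70, and 2.57 RPM in Ly6C hi WT and 6.71, 5.97, 6.53, and 11.1 RPM in Ly6C low WT libraries. In Slc29a3-/- it was at 0.634 to 0.876 against 4.53 to 5.72 RPM, and in Slc29a3-/- Tlr7-/- at 1.04 to 2.11 against 4.13 to 12.2 RPM, so that no library of one subset reached the other. It passed the filter mainly through its Ly6C low values, so these levels are given with no test. Ly6C hi WT replicate 4 and the Ly6C hi Slc29a3-/- Tlr7-/- libraries also exceeded 1 RPM. Even in Ly6C low cells it remained at a few RPM.

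**Figure D5:**
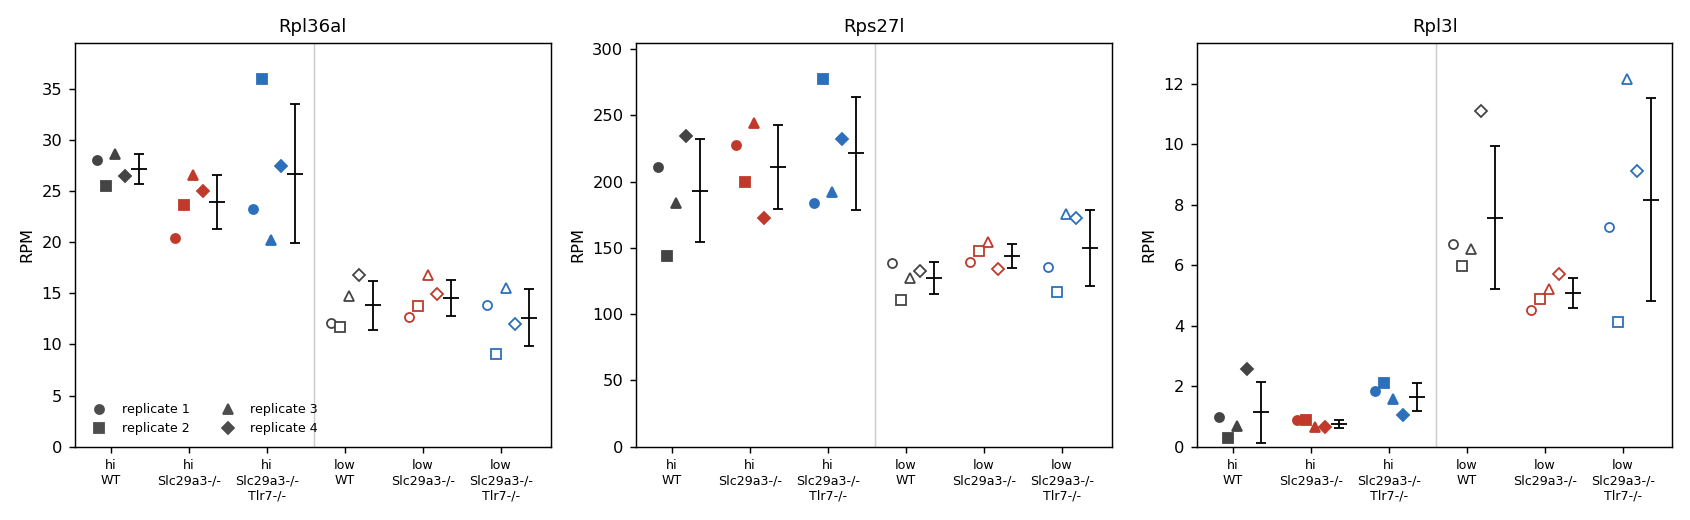
RPM of the paralogs Rpl36al, Rps27l, and Rpl3l in each library, with the mean and SD of 4 libraries per group; filled symbols are Ly6C hi and open symbols Ly6C low. Rpl36al lies at 20.2 to 35.9 RPM in Ly6C hi and at 9.05 to 16.8 RPM in Ly6C low libraries, and Rpl3l is the reverse.

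Of the core genes, Rpl4 (0.71 ± 0.24, limma, adjusted P = 0.025) and Rps9 (1.17 ± 0.44, limma, adjusted P = 0.044) were higher in Ly6C hi than in Ly6C low WT cells. Rpl4 read 1504, 891, 1309.9, and 1099.8 RPM in Ly6C low WT libraries, all below its Ly6C hi values. In WT, same-numbered libraries of the subsets deviated together, though whether the numbers mark pairs is not known. With the replicate number as a block Rps9 missed the threshold (1.17, limma, adjusted P = 0.057). The other 4 calls in WT stayed under the block. Rpl4 and Rps9 passed in Slc29a3-/- Tlr7-/- mice too (0.70 and 1.31), where Rps3 was also higher (0.43 ± 0.14, limma, adjusted P = 0.0195), as was Rpl32 (0.61 ± 0.19, limma, adjusted P = 0.017). In Slc29a3-/- mice, Rpl32 (0.60 ± 0.19, limma, adjusted P = 0.016) and Rps4l (0.78 ± 0.24, limma, adjusted P = 0.01) were the further genes that were higher.

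Other genes of translation were set beside the RP genes. Of the RPs with other names, only Rack1, a scaffold on the head of the small subunit, was read well. Its level was 3276, 3180.2, 3392, and 3065 RPM in Ly6C hi WT, 2745, 2786, 2563, and 2114 RPM in Slc29a3-/-, and 3583, 3422, 3579.5, and 3164 RPM in Slc29a3-/- Tlr7-/- libraries. The Slc29a3-/- libraries lay below both other groups, with log2 fold changes of -0.35 (limma, adjusted P = 0.076) and -0.44 (limma, adjusted P = 0.039). The amplicon of Rplp0 did not exceed 3.98 RPM.

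A list of 11 TOP mRNAs outside the RP genes summed to 11878 to 12550 RPM in Ly6C hi WT, 8450 to 10593 RPM in Slc29a3-/-, and 11378 to 14963 RPM in Slc29a3-/- Tlr7-/- libraries, without overlap of Slc29a3-/- with either. By gene, 0 of 11 passed against WT (median -0.27), and 3 (27.3%) were lower than in Slc29a3-/- Tlr7-/- (median -0.29), beside 10.3% of all genes. Its leading genes Eef2, which moves the ribosome along the mRNA, and Pabpc1, the poly(A)-binding protein, differed from WT by -0.40 and -0.24 (limma, adjusted P = 0.06 and 0.19). Between the subsets of WT, 5 of the 11 were higher in Ly6C hi cells and 0 lower (19.1% and 10.5% of all genes; median 0.59), with Eef2 at 0.97 (limma, adjusted P = 6.5e-05) and Pabpc1 at 0.59 (limma, adjusted P = 0.0021). Of 30 translation factors, a list that also holds Eef2 and Pabpc1, 2 rose and 3 fell in Ly6C hi Slc29a3-/- against WT (10.2% and 17.8% of all genes; median -0.15), and 9 were higher and 0 lower in Ly6C hi than in Ly6C low WT cells (19.1% and 10.5%; median 0.23).

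Genes of ribosome assembly and of the mitochondrial ribosome were counted as well. Of 54 ribosome biogenesis genes, 10 (18.5%) fell and 0 rose in Ly6C hi Slc29a3-/- against WT (median -0.25), a share near the 17.8% of all genes, and 1 (1.85%) was lower than in Slc29a3-/- Tlr7-/-, beside 10.3%. Between the subsets of WT, 3 were higher and 4 lower in Ly6C hi cells (19.1% and 10.5% of all genes; median 0.01). Its leading genes, the nucleolar proteins Ncl and Npm1, differed from WT by -0.04 and -0.34 in Ly6C hi Slc29a3-/- cells (limma, adjusted P = 0.88 and 0.63). Of 69 mitochondrial RP genes, 7 rose and 4 fell (10.2% and 17.8% of all genes; median -0.04), and their sum was 2459 to 2591 RPM in Ly6C hi Slc29a3-/- against 2520 to 2713 RPM in WT libraries. The leading genes Mrpl24 and Mrpl18 differed from WT by -0.12 and 0.16 (limma, adjusted P = 0.52 and 0.41).

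Of 14 tested genes that regulate RP expression or TOP translation, 3 (21.4%) fell in Ly6C hi Slc29a3-/- against WT and 0 rose, a share near the 17.8% of all genes. They were Larp1, the repressor of TOP mRNAs (-0.34, limma, adjusted P = 0.044), Rps6kb2, an S6 kinase (-0.64, limma, adjusted P = 0.013), and the transcription factor Sp1 (-0.35, limma, adjusted P = 0.027). In Slc29a3-/- Tlr7-/- against WT the 3 genes differed by -0.36, -0.41, and -0.34 and did not pass (limma, adjusted P = 0.10, 0.17, and 0.097). Mtor, Rptor, Rheb, Tsc1, Tsc2, Rps6kb1, Eif4ebp1, Eif4ebp2, Gabpa, Yy1, and Myc did not pass there, with log2 fold changes of -0.38 (Rptor) to 0.25 (Gabpa). Myc, a driver of ribosome production, was higher in Ly6C hi than in Ly6C low cells in all 3 genotypes, by 1.70 in WT (limma, adjusted P = 0.00046), 1.53 in Slc29a3-/- (limma, adjusted P = 0.00088), and 1.33 in Slc29a3-/- Tlr7-/- mice (limma, adjusted P = 0.0041). Larp1 was higher in Ly6C hi cells as well, by 0.64 in WT (limma, adjusted P = 0.0095).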

How the data were processed

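Libraries of splenic monocytes were made with an amplicon panel and sequenced on an Ion Proton. The deposited values are RPM made by the authors, for which the labels name the sequencer's AmpliSeq RNA plug-in and build mm10, and a gene without reads is written as 0.0001 (set to 0 here). The methods of the study name STAR and HTSeq, and which of the 2 routes gave the table is not given in the sources used here. Low values were whole multiples of 1 read (100% within 0.1 read), from which depth was inferred, so intervals and floors cover counting error only.

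Values were log2(RPM + 1), with genes at 1 RPM or more in at least 4 libraries kept. Genotypes were compared with limma 3.58.1 (R 4.3.3, intensity trend, Benjamini-Hochberg over all genes tested) in a fit of the 12 libraries of each subset, and subsets and interactions in a fit of all 24. Fold changes of low genes are understated on this scale. Named were a list of RP genes, up to 3 rising and 3 falling RP genes per comparison with an adjusted P under 0.05, the regulators and RPs of other names, and the 2 most abundant genes of each other list. Genes outside this rule (Rps3, Rps9, Rpl32, Rpl41, Rps4l, and Rpl7l1, where they did not pass) were named after their values were seen. A further 2 genes that match the rule for RP genes are not reported here, and the sums, counts, and medians leave them out. The genes and lists were chosen with earlier results of these data known. The fit was tested on simulated data.

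Same-numbered Ly6C hi and Ly6C low WT libraries deviated together from their group means (r = 0.39, 0.31, 0.39, and 0.67), so a fit with the number as a block is given for WT. WT replicate 4 stood apart in both subsets, and correlations between differently numbered libraries were not computed. The r values therefore cannot tell pairs by number from a shared deviation of replicate 4. The labels do not say that same-numbered libraries share a mouse. Alternatives were other scalings, filters, pseudocounts, and fits, and each library left out. WT replicate 4 as the sole control was among them. Leaving out 3 uneven libraries, and leaving neutrophil genes out of the library total, were added after seeing the data.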

Additional observations from a re-analysis of the deposited data

Results flagged for a closer look

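In 114 groups of 4 libraries, 7 (6.14%) held a library set apart from the other 3. For a single group chance gives about 1 in 20, but the groups include overlapping sums of the same genes and are not separate trials. In each of the 7 it was WT replicate 4. Its summed level of all RP genes was 10262 RPM in Ly6C hi (others 12303 to 12609) and 7484 RPM in Ly6C low cells (others 9248 to 9387). For the 10 core genes measured in all libraries the sums were 9793 RPM (others 11985 to 12228) and 7114 RPM (others 8966 to 9136). For the small subunit genes the sum was 6353 RPM in Ly6C hi cells (others 8059 to 8213). In the same Ly6C hi library Rps15 was low, at 1395 RPM (others 2519 to 2691), and Rpl7l1 was high, at 167.9 RPM (others 89.6 to 93.2).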

How the results depend on the processing

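Counts below are RP genes past an adjusted P of 0.05 (limma), and medians are log2 differences of the 15 RP genes measured in all libraries. Shares of all genes are not given for the settings of this section, so a change in count is not read as particular to RP genes. KO stands for Slc29a3-/- and DKO for Slc29a3-/- Tlr7-/-. Scaling to the RP genes divides each library by the geometric mean of 13 of them, which removes a change they share by construction. Its counts and medians therefore cannot tell whether such a change is present. This scaling is among the alternative settings counted in the text. In Ly6C hi KO against WT (3 called, median -0.23) the count was 0 with TMM, RLE, scaling to the RP genes themselves, the neutrophil-free total, and WT replicate 4 alone, and 1 with no filter, with no trend, and with all 24 libraries in 1 fit. Its median was -0.056 with TMM, -0.11 with RLE, and -0.017 with scaling to the RP genes. With WT replicate 4 alone Rps15 reversed to 0.063. In Ly6C hi DKO against WT the count (0) was 1 with TMM, RLE, the neutrophil-free total, and the fit of all 24, and the median (-0.03) was 0.30 with WT replicate 4 alone. In Ly6C hi KO against DKO (2) it was 0 with TMM and scaling to the RP genes, and 1 with RLE, no filter, no trend, the neutrophil-free total, only the 2 groups, and without the uneven libraries, with medians of -0.024 (TMM), -0.081 (RLE), 0.046 (RP genes), and -0.073 (neutrophil-free). In Ly6C low KO against WT (0) it was 2 with only the 2 groups and 1 without the uneven libraries, which belong to neither group. In Ly6C low DKO against WT (0) it was 1 with the neutrophil-free total and a mean of 10 RPM, and 2 in the fit of all 24. Between the subsets, DKO (7) gave 4 with TMM and RLE and 2 with scaling to the RP genes (median -0.073), WT (5) gave 3 with no filter, 1 with WT replicate 4 alone (median 0.12), and a median of 0.035 with scaling to the RP genes, and the KO median (0.15) was 0.24 with TMM, 0.25 with RLE, and 0.30 with the neutrophil-free total. For the interaction of KO and WT (0) the count was 1 without the uneven libraries (Rps9, on whose values these libraries were chosen), and its median (-0.12) was 0.055 with TMM, 0.045 with RLE, 0.11 with scaling to the RP genes, and -0.018 with the neutrophil-free total. The median of the interaction of KO and DKO (-0.20) was 0.013 with TMM, 0.011 with RLE, and 0.14 with scaling to the RP genes. The causes were not tested.

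With each library left out in turn, counts ranged from 0 to 4 (Ly6C hi KO against WT), 0 to 2 (Ly6C hi DKO against WT), 1 to 3 (Ly6C hi KO against DKO), 0 to 1 (Ly6C low KO against WT, median -0.079 to 0.091), 0 to 2 (Ly6C low DKO against WT, median -0.11 to 0.042), 0 to 1 (Ly6C low KO against DKO), 3 to 7 (subsets in WT), 3 to 5 (subsets in KO), and 0 to 1 (interaction of KO and DKO). The median of the interaction of KO and WT ranged from -0.23 to -0.063. Over all alternatives, 293 counts stayed within 1.5 times and 62 did not, and 330 medians moved by less than the spread between replicates and 25 by more. Values of single RP genes kept their direction and their side of the threshold 642 times, lost the call 121 times, and gained it 14 times.

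With the replicate number as a block, 4 RP genes passed in Ly6C hi KO against WT (Rps21 at adjusted P = 0.041 was added), and in Ly6C low DKO against WT Rpl41 passed (0.044). Outside WT the numbers were not taken as pairs, since not every correlation of same-numbered subsets was over 0.1 (3 of 4 in KO and 1 of 4 in DKO), nor of other pairs of groups (9 of 48). The planned count test on recovered reads was not run, because the table, with 0.0001 in place of 0, did not pass a check for whole reads. Depth limits genes near the floor of 3 reads, such as Rpl22, Rps2, and Rps4x.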

Other observations

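Ranges over all 24 libraries, which hold differences between groups as well as the spread of replicates, were narrow for some RP genes and wide for others. Rpl8 lay between 655 and 1179 RPM over all 24 libraries, Rpl30 between 53.2 and 152 RPM, and Rps19bp1 between 13.7 and 33.2 RPM, whereas Rps9 ran from 179 to 2555 RPM and Rpl7l1 from 18.2 to 179 RPM. Rps4l read 34.6, 30.04, 32.1, and 22.4 RPM in Ly6C hi WT and 15.9, 14.6, 21.3, and 31.5 RPM in Ly6C hi Slc29a3-/- libraries, which overlapped.

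Of 8 tested p53 targets, 3 (37.5%) fell in Ly6C hi Slc29a3-/- against WT and 0 rose, beside 17.8% and 10.2% of all genes. Cdkn1a, the cell cycle inhibitor p21, fell by 1.77 on the log2 scale (limma, adjusted P = 0.0026) and in Slc29a3-/- Tlr7-/- against WT it fell by 1.55 on that scale (limma, adjusted P = 0.047). Eef1b2, a subunit of the exchange factor for elongation factor 1, was lower in Ly6C hi Slc29a3-/- than in Slc29a3-/- Tlr7-/- cells (-0.62, limma, adjusted P = 0.0079) and differed from WT by 0.02 (limma, adjusted P = 0.93).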
